A study of Mus musculus with 23 samples.

Results

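The genes described here are 10 genes of leptin feedback and inflammation: Socs3, Stat3, Ptpn1, Il1b, Il6, Tnf, Ccl2, Tlr4, Nfkbia and Ikbkb. They were taken by symbol from the gene names of the arrays, and their rows were looked up in the table of log2 levels. All 10 had a row that passed the filter on dim probes, and none was lost. Stat3 has 2 rows, one for each of its transcript entries, so the 10 genes filled 11 of the 31395 rows and were 10 of the 29897 gene names measured. RNA was hybridized to single-color Agilent arrays. The mice were female C57BL/6, given as 5 weeks old in the labels. For 8 weeks the lean group ate standard chow (SC), while the obese group could choose freely between SC and a chocolate mixture (CM). Mice of both diets then passed through a test battery of 11 days, which gave limited chocolate to the SC mice as well, and the brain was dissected afterwards. Hence the SC mice were not naive to chocolate. There were 4 arrays each of SC and CM striatum (ST), 4 each of SC and CM hypothalamus (HT), and 4 SC and 3 CM arrays of frontal cortex (FC). The regions came from the same mice. The tissue label of the HT arrays names a thalamic region, and the treatment text names hypothalamus.

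Leptin, made by fat tissue, acts in the brain through a receptor that activates the kinase JAK2 and the transcription factor STAT3. STAT3 induces Socs3, whose protein shuts the receptor down, and the phosphatase PTP1B, encoded by Ptpn1, also switches JAK2 off. In the inflammatory branch, Toll-like receptors such as TLR4 activate the IKK kinase, which releases NF-kappaB from its inhibitor IkappaB alpha, encoded by Nfkbia, and NF-kappaB in turn raises cytokine genes and Nfkbia itself. Both branches are known to change in the hypothalamus of rodents on rich diets.

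The arrays lay on 3 slides, and the slides largely followed the groups. Slide 1 carried the CM arrays of ST, 3 SC arrays of FC and 1 of ST. Slide 2 carried the CM arrays of HT, 2 SC arrays of ST, 1 of FC and 1 of HT. Slide 3 carried the CM arrays of FC, 3 SC arrays of HT and 1 of ST. No slide held both diets of FC, so diet and slide cannot be told apart there within a slide. In ST and HT a single SC array shared a slide with the CM arrays. Each difference was therefore also fitted with a fixed term for the slide, called the slide-blocked fit below. The scanner software marked between 36432 and 42261 spots per array as well above background. On the SC arrays all 6 striatal markers were higher in ST than in FC and all 5 cortical markers were lower in HT than in FC. Of 6 hypothalamic markers 4 were higher in HT than in FC, as were all 5 thalamic markers, so that the HT samples carried markers of both regions. Beside these counts stand 14.9% of all rows called between ST and FC and 43.2% between HT and FC. One SC ST array stood apart, that of mouse L52, with a summed log2 level of 16.55 for the 6 hypothalamic markers against 10.10 to 11.37 on the other SC ST arrays and 14.55 to 18.17 in SC HT. Its striatal markers, at 17.90, lay within the range of SC ST (17.31 to 18.41). It was the only SC ST array on slide 1. Among the CM ST arrays that of mouse O58 stood apart, with a summed log2 level of 18.33 for the choroid plexus markers against 12.29 to 14.18. Other arrays differed in their markers too. The summed cortical level ran from 10.58 to 12.99 among the SC ST arrays and from 9.37 to 12.02 among the CM ST arrays. Summed striatal levels in FC were 15.27 to 15.73 on the SC arrays of slide 1 and 13.46 on that of slide 2. On the CM FC arrays they were 15.69 for mouse O58 and 13.43 and 13.72 for O54 and O56. The part of this spread in the FC and ST differences was not tested. Without SC ST replicate 52 the calls of the 10 genes that were lost were those of Stat3 NM_213659 for diet in ST and of Ptpn1 between HT and ST on SC, both given below, and without CM ST replicate 58 none of their calls was lost.

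How well a gene could be measured differed between the rows. Socs3, both Stat3 rows, Ptpn1, Nfkbia and Ikbkb were well above background on all 23 arrays. Il6 was not well above background in any of its 46 spots, and its row rests on 1 of its 2 spots per array, the one that passed the filter. Tnf was well above background in 18 of 230 spots, Il1b in 56 of 230, Tlr4 in 31 of 46 and Ccl2 in 188 of 230. An array is counted below as detecting a gene where at least 50% of the spots of its row were well above background. No spot of these genes was saturated.

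Stat3 was read by 2 probes, that of NM_213659 in 10 spots per array and that of NM_011486 in 1 spot per array.

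The promoters of Socs3 and Nfkbia are shown because both genes are feedback inhibitors induced by the pathway they restrain. The 250 bases before each gene's start were read from RefSeq (GRCm38.p6), which held 7 of the 10 genes and not Ikbkb, Tlr4 or Ccl2. They were searched on both strands for the STAT site TTCNNNGAA and for the NF-kappaB consensus, and the capitals mark the matches. The Socs3 stretch is chr11:117969367-117969616 and the Nfkbia stretch is chr12:55492648-55492897, both on the minus strand.
Socs3 promoter: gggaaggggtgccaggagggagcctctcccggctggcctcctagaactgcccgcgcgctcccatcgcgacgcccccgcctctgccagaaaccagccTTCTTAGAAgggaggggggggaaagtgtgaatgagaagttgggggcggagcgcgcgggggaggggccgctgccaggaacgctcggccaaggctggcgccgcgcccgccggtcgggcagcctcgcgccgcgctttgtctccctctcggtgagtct
Nfkbia promoter: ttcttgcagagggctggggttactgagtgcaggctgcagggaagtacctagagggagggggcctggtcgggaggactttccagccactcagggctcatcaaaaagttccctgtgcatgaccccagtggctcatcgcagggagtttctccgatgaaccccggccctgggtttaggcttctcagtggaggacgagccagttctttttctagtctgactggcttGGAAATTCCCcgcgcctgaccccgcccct
The STAT match of Socs3 begins 154 bases before the start and the NF-kappaB match of Nfkbia 29 bases before it. Among the 7 genes Socs3 alone had the STAT site, which 7.04% of 32536 distinct promoter stretches held. Nfkbia and Il6 had the NF-kappaB consensus, which 3.92% of them held. Neither letter match is evidence of binding, and no binding was measured.

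**Figure D1:**
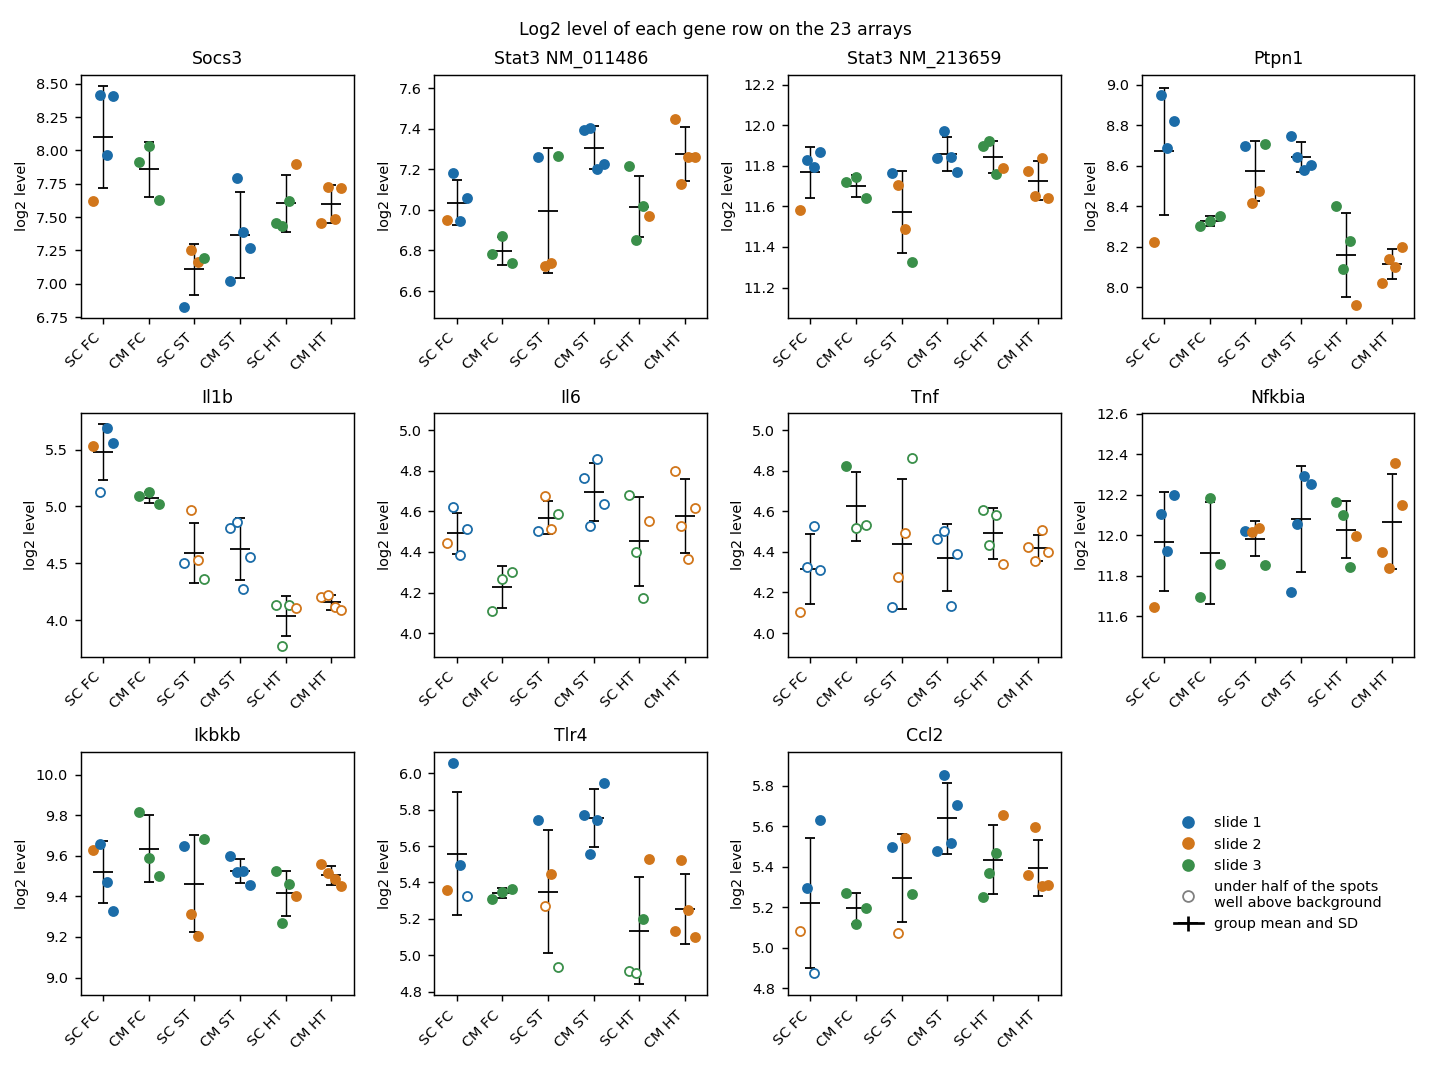
Log2 level (y axis) of each row on the 23 arrays by diet and region (x axis), with points colored by slide, open points where under 50% of the spots were well above background, and bars for the group mean and SD. Il1b falls from FC through ST to HT on both diets, with open points on all ST and HT arrays. Il6 is open on every array, and the 2 SC ST points of Stat3 NM_011486 on slide 2 lie far below the other 2.

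The first question was whether 8 weeks of chocolate changed these genes in FC. Ptpn1 and Il1b were lower in CM than in SC and none of the 11 rows was higher (limma, adjusted p under 0.05). This has to be read against 28.6% of all rows called in FC, 13.2% of all rows being lower. The median difference of the 11 rows was -0.21 on the log2 scale against -0.04 over all rows, while the median size of the difference was 0.23 in both.

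Ptpn1, the gene of the phosphatase PTP1B, had log2 levels of 8.22, 8.95, 8.69 and 8.82 on the SC FC arrays and 8.30, 8.33 and 8.35 on the CM FC arrays. The 3 SC arrays of slide 1 were all above the CM arrays and the SC array of slide 2 was below them. The log2 difference was -0.40 (SE 0.097, a 1.32-fold lower level, adjusted p = 0.00479, limma). Its 2 probes, averaged in this row, fell by 0.42 (adjusted p = 0.0143) and 0.38 (adjusted p = 0.00923) when fitted apart. In the slide-blocked fit the difference was -0.32, its 95% interval ran from -0.67 to 0.03, and it was no longer called (adjusted p = 0.753). Without array weights it was not called either.

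Il1b, which encodes interleukin 1 beta, had log2 levels of 5.53, 5.12, 5.70 and 5.56 on the SC FC arrays and 5.09, 5.13 and 5.02 on the CM FC arrays. Of the SC arrays 3 lay above all CM arrays and the other one, of mouse L54, was level with them. The log2 difference was -0.43 (SE 0.14, adjusted p = 0.0305, limma). Detection ran the other way. The share of Il1b spots well above background was 62.5% in SC FC (25 of 40) and 86.7% in CM FC (26 of 30), and over all genes the CM FC arrays had between 41481 and 42261 such spots and the SC FC arrays between 36432 and 38472. The part of this in the Il1b difference was not tested. The call was lost without the SC array of replicate 52 (log2 difference -0.39, adjusted p = 0.0649) or 56 (-0.35, adjusted p = 0.116), without the CM array of replicate 56 (-0.45, adjusted p = 0.0532) or 58 (-0.41, adjusted p = 0.0544), and in the slide-blocked fit (-0.32, adjusted p = 0.919). It was also lost with the slide as a random block (-0.41, adjusted p = 0.211), without array weights (-0.40, adjusted p = 0.0908) and with scaling by the 75th percentile of the processed signal, which gave a smaller difference of -0.23 (adjusted p = 0.561). An offset of 50 gave -0.20, still called (adjusted p = 0.0152).

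The other genes of FC did not pass the test. Stat3 NM_011486 had log2 levels of 6.95, 7.18, 6.95 and 7.06 in SC and 6.78, 6.87 and 6.74 in CM. The difference of -0.23 missed the threshold (adjusted p = 0.120, limma). Il6 read 4.39 to 4.62 in SC and 4.11 to 4.30 in CM, with both groups at background and no fold given. Tnf, the gene of tumor necrosis factor, was detected on 1 of 3 CM arrays and on none of the SC arrays, with group means of 4.63 and 4.32 (adjusted p = 0.135). With 75th percentile scaling, under which Il1b lost its call, Tnf was called as higher on CM (1.09, adjusted p = 0.00228, limma). The differences of Socs3 (-0.25), Tlr4 (-0.21), Stat3 NM_213659 (-0.09), Nfkbia (-0.06), Ccl2 (-0.02) and Ikbkb (0.15) had adjusted p values between 0.281 and 0.942. Of 8 microglial markers none was called in FC, and their summed log2 level was 13.99 to 14.23 in SC and 14.05 to 14.14 in CM. These are bulk samples, in which fewer cells of a type and less RNA per cell cannot be told apart.

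In ST the genes that passed the test were the 2 rows of Stat3, and both were higher in CM. No row was lower. Of all rows 9.82% were called in ST, 3.45% as higher. The median log2 difference of the 11 rows was 0.19 against 0.03 over all rows.

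Stat3 NM_011486 had log2 levels of 7.26, 6.72, 6.74 and 7.27 on the SC ST arrays and 7.39, 7.40, 7.20 and 7.23 on the CM ST arrays. The low SC values were those of the 2 arrays on slide 2, and the SC arrays of slides 1 and 3 lay within the CM range. The difference was 0.45 on the log2 scale (SE 0.12, a 1.37-fold higher level, adjusted p = 0.0216, limma). On slide 1, which held the 4 CM arrays and the SC array of mouse L52, it was 0.04. The slide-blocked fit gave 0.20 (95% interval -0.12 to 0.51, adjusted p = 0.9998), and 75th percentile scaling 0.22 (adjusted p = 0.165). The SC arrays of slides 1 and 3 had low array weights, 0.275 and 0.222. Without array weights the difference was 0.31 (adjusted p = 0.127, limma), and with only ST fitted it was 0.45 (adjusted p = 0.0941). Neither was called.

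The NM_213659 row of Stat3 read 11.77, 11.71, 11.49 and 11.33 in SC ST and 11.84, 11.97, 11.84 and 11.77 in CM ST. The lowest CM array was level with the highest SC array, the one on slide 1. The difference of 0.30 (SE 0.091, adjusted p = 0.0436, limma) was 0.09 within slide 1, and 0.09 in the slide-blocked fit (adjusted p = 0.9998). The call was lost when any of 6 of the 8 arrays was left out, namely SC replicates 52 (0.30, adjusted p = 0.0534), 56 (0.19, adjusted p = 0.191) and 58 (0.28, adjusted p = 0.0717) and CM replicates 52 (0.31, adjusted p = 0.0564), 54 (0.26, adjusted p = 0.0973) and 56 (0.29, adjusted p = 0.0707). Without SC replicate 56 it was more than 1.5 times smaller. The Stat3 rows were read on the same arrays and are not separate samples. Their low SC arrays differed, being L54 and L56 for NM_011486 and L56 and L58 for NM_213659.

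Among the other genes of ST, Tlr4 had the next largest difference, 0.35 (adjusted p = 0.184, limma). It was detected on 2 of 4 SC arrays and on all 4 CM arrays. The Ptpn1 row did not pass (0.13, adjusted p = 0.474), and its 2 probes differed in direction, at 0.35 and -0.08. Socs3 (0.21), the cytokine and chemokine genes (-0.07 to 0.22) and the NF-kappaB genes Nfkbia (0.05) and Ikbkb (0.19) were not called, and Il1b was detected in neither group. The summed log2 level of the 8 microglial markers was 14.16 to 14.26 in SC ST and 14.34 to 14.42 in CM ST, without overlap, though none of the 8 was called. Whether this had a part in the Stat3 or Tlr4 values was not tested.

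In HT, the region where leptin feedback is best known, no row was called by limma, beside 0.43% of all rows. An unadjusted p under 0.05 was found for 1 of 11 rows, beside 13.2% of all rows. That row was Stat3 NM_011486, with 7.22, 6.85, 7.02 and 6.97 in SC and 7.45, 7.13, 7.26 and 7.26 in CM. The groups overlapped through the SC array of mouse L52. Its log2 difference was 0.24 (95% interval 0.06 to 0.43, adjusted p = 0.222). On slide 2, with 4 CM arrays and 1 SC array, the difference was 0.30. The NM_213659 row of the same gene went the other way by -0.10 (interval -0.24 to 0.05), and the difference between the rows was not tested.

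Socs3 in HT read 7.46, 7.43, 7.62 and 7.90 on SC and 7.46, 7.73, 7.49 and 7.72 on CM. The CM values lay inside the SC range, and the difference was 0.01 with an interval from -0.30 to 0.32. Ptpn1 differed by -0.06 (-0.23 to 0.11) and its SC arrays, at 7.91 to 8.40, spanned all CM arrays. The intervals of Nfkbia (-0.23 to 0.41), Ikbkb (-0.09 to 0.26), Tlr4 (-0.10 to 0.42) and Ccl2 (-0.28 to 0.23) also held 0. Changes of these sizes could not be told from none with these arrays. Il1b, Il6 and Tnf were detected on no HT array of either diet, so that no fold is given for them.

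**Figure D2:**
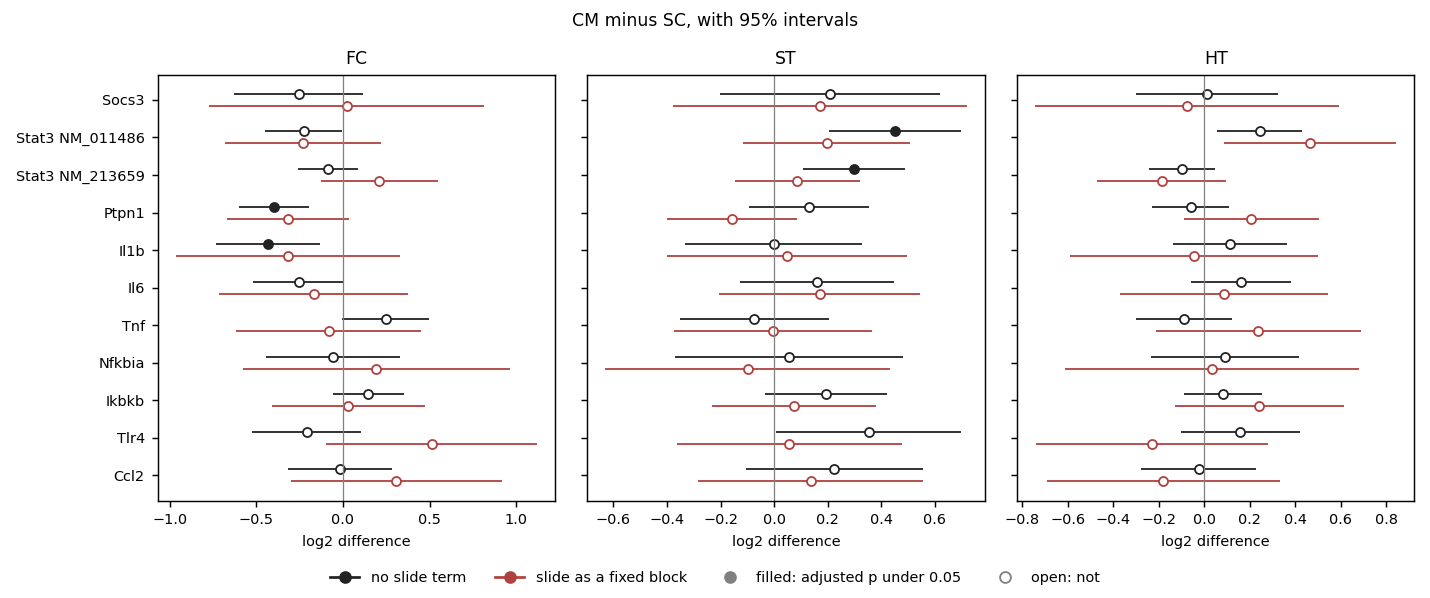
Log2 difference of CM minus SC (x axis) for each row (y axis) in FC, ST and HT, with 95% intervals, from the fit without a slide term (black) and the slide-blocked fit (red), filled where adjusted p was under 0.05. Filled points are Ptpn1 and Il1b in FC and the 2 Stat3 rows in ST, all of them black.

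In the slide-blocked fit limma called none of the 11 rows and 0% of all rows in any region. At an unadjusted p under 0.05 it had 0 of the 11 rows in FC, 0 in ST and 1 in HT, beside 7.07%, 4.48% and 2.69% of all rows. The direction turned for 6 of the 11 rows in FC, 3 in ST and 5 in HT, none of them called in either fit. Tlr4 went from -0.21 to 0.51 in FC and from 0.16 to -0.23 in HT, Stat3 NM_213659 from -0.09 to 0.21 in FC and Ptpn1 from 0.13 to -0.16 in ST. At the fold and p thresholds of the study, which are 2-fold and 0.01 in FC and ST and 1.5-fold and 0.05 in HT, 0 of the 11 rows passed in any region, beside 2.94%, 0.602% and 0.178% of all rows.

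The diet differences were then compared between regions in the same model. Stat3 NM_011486 differed between ST and FC by 0.68 on the log2 scale (SE 0.16, adjusted p = 0.00389, limma), with 0.45 in ST, which was called, and -0.23 in FC, which was not. Ptpn1 differed by 0.53 (adjusted p = 0.0104) and Stat3 NM_213659 by 0.38 (adjusted p = 0.0252), so that 3 of the 11 rows were called, beside 30.1% of all rows. With 75th percentile scaling the Stat3 NM_011486 value fell to 0.15 and was not called (adjusted p = 0.444). Tnf was called under that scaling, at -1.43 (adjusted p = 0.00593). The 2 Ptpn1 probes fitted apart gave 0.77 (adjusted p = 0.00408) and 0.29 (adjusted p = 0.158), and without array weights the row gave 0.41 (adjusted p = 0.119). Without SC ST replicate 52 Tlr4 was called as well (0.67, adjusted p = 0.0378). Between HT and FC only Stat3 NM_011486 was called, by 0.47 (adjusted p = 0.0248), beside 20% of all rows. With 75th percentile scaling it was 0.05 (adjusted p = 0.815). Between HT and ST no row of the 11 or of all rows (0%) was called by limma, 1 of the 11 and 4658 of all rows having an unadjusted p under 0.05. The differences between regions share the SC and CM arrays of each region. Blocking on the slide left none called, beside 0% of all rows in each of these comparisons, and Stat3 NM_213659 turned to -0.12 between ST and FC. The HT and FC call of Stat3 NM_011486 was also lost without SC FC replicate 54 (0.43, adjusted p = 0.0661) or 58 (0.43, adjusted p = 0.0551) and without SC HT replicate 54 (0.42, adjusted p = 0.0688) or 56 (0.44, adjusted p = 0.0810), and the ST and FC call of Stat3 NM_213659 without SC FC replicate 54 (0.37, adjusted p just above the threshold) or SC ST replicate 56 (0.28, adjusted p = 0.105).

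The levels of the genes also differed between the regions of SC mice, and the clearest case was Il1b. It was highest in FC, while in ST and HT it lay at background. Socs3 was highest in FC and lowest in ST, and Ptpn1 was lowest in HT. None of the 11 rows was higher in ST or HT than in FC by the test. For HT this depended on the scaling. With 75th percentile scaling Ccl2 (0.80, adjusted p = 0.00673, limma), Tnf (0.77, adjusted p = 0.0288) and Stat3 NM_011486 (0.29, adjusted p = 0.0284) were called as higher in HT.

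Il1b levels on SC were 5.12 to 5.70 in FC (given above), 4.50, 4.97, 4.53 and 4.36 in ST, and 4.13, 3.78, 4.14 and 4.10 in HT. The regions did not overlap. Between ST and FC the difference was -0.90 (SE 0.19, adjusted p = 0.00413, limma) and between HT and FC it was -1.47 (SE 0.16, adjusted p = 8.02e-07). Il1b was detected on 3 of 4 SC FC arrays and on no ST or HT array. Measured against the dimmest detected spots, its level was at least 1.82-fold lower in ST and at least 2.51-fold lower in HT than in FC. ST and HT also differed by the test (group means 4.59 and 4.04, adjusted p = 0.0191), but both lay at background and no fold is given. On CM it was again highest in FC, with 5.02 to 5.13 in FC, 4.27 to 4.87 in ST and 4.09 to 4.22 in HT. There each region lay on a slide of its own, and Il1b was detected on no ST or HT array.

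The fall of Il1b was found within slides too. It was -0.96 between ST and FC on slide 1 and -0.78 on slide 2, and -1.43 between HT and FC on slide 2, where 1 array stood against 1. In the slide-blocked fit the ST and FC difference was -0.95 (adjusted p = 0.00486, beside 10.9% of all rows called) and the HT and FC difference -1.40 (adjusted p = 0.00378, beside 14.8%). The size depended on the background correction. An offset of 50 gave -0.35 between ST and FC and -0.53 between HT and FC, and scaling by the 75th percentile of the processed signal gave -1.48 and -2.62, all of them called. The ST and FC call was lost without SC ST replicate 56 (-0.69, adjusted p = 0.0519).

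Socs3, the inhibitor that STAT3 induces, had log2 levels of 7.62, 8.42, 7.96 and 8.41 in SC FC and 6.83, 7.25, 7.16 and 7.19 in SC ST. Every FC array was above every ST array. The difference was -1.004 (SE 0.23, a 2.01-fold lower level in ST, adjusted p = 0.00731, limma), beside 14.9% of all rows called, and Socs3 and Il1b were the 2 of 11 rows called. Within slide 1, against the ST array of mouse L52, it was -1.43 and within slide 2 -0.41. In the slide-blocked fit it was -0.89 and still called (adjusted p = 0.0235), and no array left out ended the call. Socs3 in HT lay between, at 7.43 to 7.90, overlapping FC but not ST.

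Between HT and FC, 4 of 11 rows were called, all lower in HT, beside 43.2% of all rows, with 20.4% of all rows lower. Besides Il1b they were Ptpn1 (-0.55, SE 0.11, adjusted p = 4.16e-04, limma), Socs3 (-0.56, SE 0.20, adjusted p = 0.0275) and Tlr4 (-0.42, SE 0.17, adjusted p = 0.0450). Of these only Il1b was called in the slide-blocked fit. Ptpn1 then had -0.42 (95% interval -0.76 to -0.08, adjusted p = 0.0903) and Socs3 -0.30 (adjusted p = 0.671). Socs3 was not called with quantile normalization within regions (-0.39, adjusted p = 0.116) or 75th percentile scaling (-0.38, adjusted p = 0.155) either. Socs3 was higher by 0.28 in HT on slide 2, where 1 array stood against 1. Its call ended without SC FC replicate 54 (-0.46, adjusted p = 0.0960) or 58 (-0.41, adjusted p = 0.117) and without SC HT replicate 54 (-0.50, adjusted p = 0.0770) or 56 (-0.58, adjusted p = 0.0536).

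Tlr4, the receptor of bacterial lipopolysaccharide, read 5.36, 6.06, 5.49 and 5.32 in SC FC and 4.91, 4.90, 5.20 and 5.53 in SC HT. The groups overlapped, and the HT array of slide 2 was the highest of HT. Tlr4 was detected on 2 of the 4 HT arrays and on 3 of the 4 FC arrays. Its direction turned to 0.21 in the slide-blocked fit (adjusted p = 0.7004) and was 0.17 within slide 2. An offset of 50 gave -0.19 (adjusted p = 0.0621), quantile normalization within regions -0.30 (adjusted p = 0.154) and 75th percentile scaling -0.35 (adjusted p = 0.372). Left out in turn, SC FC replicate 54 (-0.29, adjusted p = 0.176) or 56 (-0.40, adjusted p = 0.107) and SC HT replicate 52 (-0.37, adjusted p = 0.0769), 54 (-0.35, adjusted p = 0.133) or 56 (-0.48, adjusted p = 0.0519) each ended the call.

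Ptpn1 read 8.69, 8.42, 8.48 and 8.71 in SC ST and 8.40, 8.09, 8.23 and 7.91 in SC HT. All ST arrays were above all HT arrays. The difference of HT minus ST was -0.34 (SE 0.11, adjusted p = 0.0399, limma), -0.53 within slide 2, -0.47 within slide 3 and -0.48 in the slide-blocked fit (adjusted p = 0.0201, beside 15% of all rows). Ptpn1 and Il1b were the 2 of 11 rows called there, beside 21.5% of all rows, and Il1b was not called with the block (adjusted p = 0.271). With quantile normalization within regions the Ptpn1 difference fell to -0.17 and was not called (adjusted p = 0.287). Its 2 probes fitted apart gave -0.27 (adjusted p = 0.214) and -0.40 (adjusted p = 0.0199). The Ptpn1 call ended without SC ST replicate 52, 56 or 58 or SC HT replicate 54, 56 or 58, with differences from -0.34 to -0.30 and adjusted p up to 0.0963. That of Il1b ended without SC HT replicate 54 (-0.49, adjusted p = 0.0568).

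**Figure D3:**
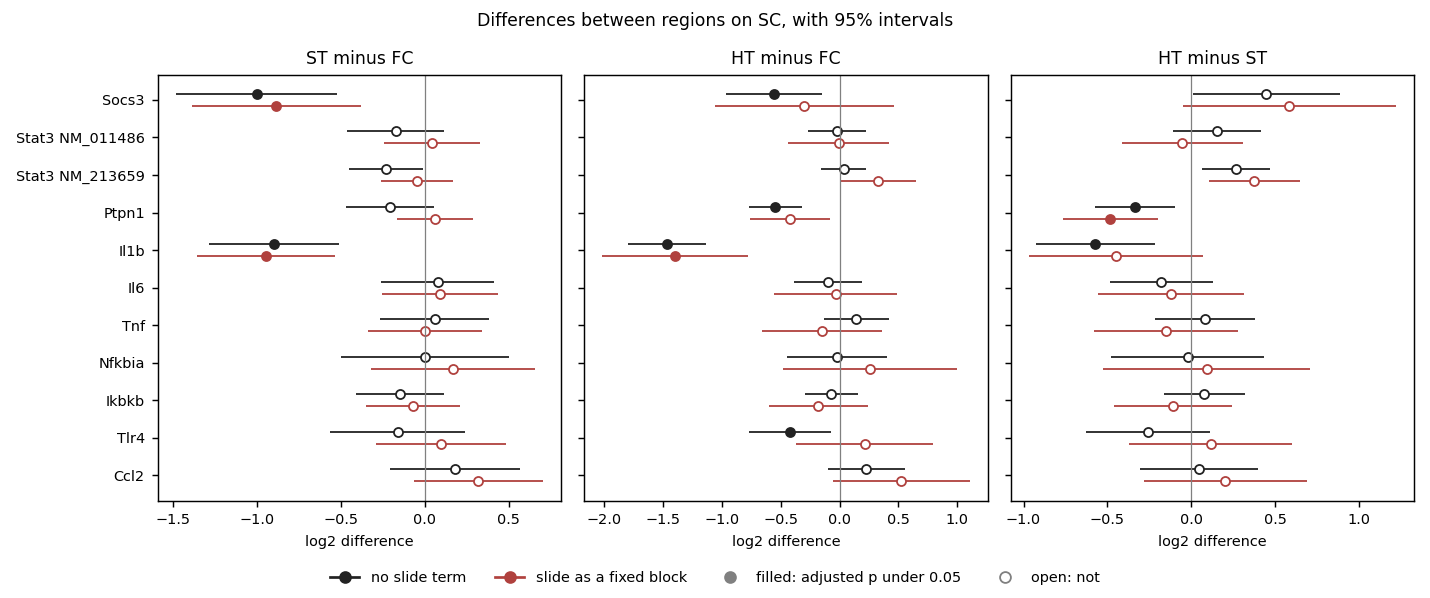
Log2 difference between regions on SC (x axis) for each row (y axis), with 95% intervals, from the fit without a slide term (black) and the slide-blocked fit (red), filled where adjusted p was under 0.05. Il1b is filled in both fits in the first 2 panels, Socs3 in both for ST minus FC and Ptpn1 in both for HT minus ST.

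Microglia are a known source of interleukin 1 beta and TLR4 in the brain, and their markers differed between the regions as well. Of 8 microglial markers none was called between ST and FC on SC, 6 were lower in HT than in FC, beside 43.2% of all rows called in either direction, and all 8 were lower in HT than in ST, beside 21.5%. In the slide-blocked fit 0, 2 and 5 of them were called, beside 10.9%, 14.8% and 15% of all rows. Cx3cr1, the fractalkine receptor gene of microglia, fell by 0.53 in HT against FC (adjusted p = 1.09e-04, limma) and by 0.60 against ST (adjusted p = 1.05e-04), in both cases called with the block too. The summed log2 level of the 8 markers was 13.99 to 14.23 in SC FC, 14.16 to 14.26 in SC ST and 13.65 to 13.88 in SC HT. The part of microglia in the FC, ST and HT values of Il1b and Tlr4 was not tested.

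Ikbkb, which encodes the IKK beta kinase, and Nfkbia were the rows with the flattest profile. Group means of Ikbkb lay between 9.41 (SC HT) and 9.64 (CM FC), with SDs of 0.046 to 0.24. Those of Nfkbia lay between 11.91 (CM FC) and 12.08 (CM ST), with SDs of 0.086 to 0.26. Neither was called in any comparison of diet or of SC regions. Ccl2, the chemokine that draws monocytes, was detected on 20 of 23 arrays, with group means from 5.19 (CM FC) to 5.64 (CM ST), and was not called in these comparisons either. Its share of spots well above background was 37.5% in SC FC against 100% in CM FC, at nearly the same mean level (5.22 and 5.19).

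**Figure D4:**
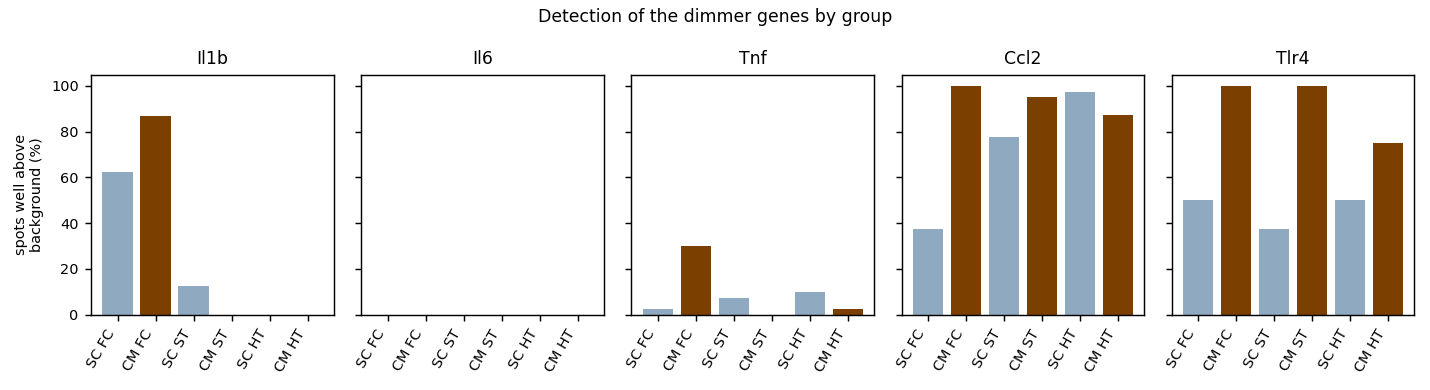
Percentage of spots well above background (y axis) for the 5 dimmer genes by group (x axis), SC in gray blue and CM in brown. Il1b is detected mainly in FC, Il6 nowhere, Tnf mainly in CM FC (30%), Ccl2 in most groups but least in SC FC (37.5%), and Tlr4 in most groups but least in SC ST (37.5%).

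The other genes of the pathways were read from 5 lists, whose counts stand against 28.6% of all rows called for diet in FC, 9.82% in ST and 0.43% in HT. In the slide-blocked fit no gene of the 5 lists was called for diet in any region, and the direction turned for 5 of the 14 genes called in FC and 1 of the 8 called in ST. Of 18 genes of leptin and insulin signaling 2 were higher and 1 was lower on CM in FC, a smaller share than that of all rows, 1 was higher in ST and none was called in HT. Lepr, the leptin receptor gene, rose by 0.91 in FC (SE 0.16, adjusted p = 3.20e-04, limma), and by 0.30 with the slide block (adjusted p = 0.904). Its unweighted group means lay closer together, at 9.37 on SC and 10.15 on CM. Socs1, a relative of Socs3, rose by 0.29 (adjusted p = 0.0301). Pias3, whose protein inhibits STAT3, had a difference of -0.27 (adjusted p = 0.0366), which turned to 0.03 with the slide block. In ST the gene that rose was Jak2, by 0.41 (adjusted p = 0.0141). The largest difference in HT was that of Irs1, 0.27 (adjusted p = 0.201). The median difference of the list was -0.07 (FC), 0.06 (ST) and 0.05 (HT), while over all rows it was -0.04, 0.03 and 0.01.

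Of the 14 measured genes of the NF-kappaB core (15 listed) 2 fell in FC, beside 13.2% of all rows lower there. They were Nfkb2 by 0.39 (adjusted p = 0.0353, limma) and Nfkbib, which encodes IkappaB beta, by 0.36 (adjusted p = 0.00400). In ST 2 rose, beside 3.45% of all rows higher, and both encode parts of the IKK complex to which Ikbkb belongs: Ikbkg by 0.52 (adjusted p = 0.00719) and Chuk by 0.39 (adjusted p = 0.0472). None was called in HT, where Chuk had the largest difference, 0.21 (adjusted p = 0.311). The median difference was -0.22 (FC), 0.18 (ST) and 0.04 (HT).

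Of 17 measured genes of Toll-like receptor signaling 2 were higher and 2 lower in each of FC and ST, which in FC is below the 28.6% of all rows. Tlr7 and Tlr9, sensors of nucleic acids, had differences of 0.48 (adjusted p = 0.0308, limma) and 0.39 (adjusted p = 0.00424) in FC and of -0.57 (adjusted p = 0.0482) and -0.53 (adjusted p = 0.00539) in ST. With the slide block the FC values turned to -0.30 and -0.05, and the ST values were 0.0025 and -0.07. The adaptors Tirap and Ticam1 fell in FC by 0.59 (adjusted p = 4.60e-04) and 0.32 (adjusted p = 0.0440). Tlr2 and Traf6 rose in ST by 0.57 (adjusted p = 0.0488) and 0.29 (adjusted p = 0.0422). None was called in HT, where Lbp had the largest difference in the weighted fit, 0.42 (adjusted p = 0.810). The unweighted group means of Lbp were 7.36 on both diets.

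Of 13 measured cytokine, receptor and inflammasome genes (16 listed) 1 was higher and 3 were lower in FC, a share close to the 28.6% of all rows. Nlrp3, the inflammasome sensor, had a difference of 0.50 (adjusted p = 0.0118, limma), which turned to -0.05 with the slide block. Il1r2, the decoy receptor of interleukin 1, was detected on 2 of 4 SC arrays and on none of the CM arrays and was at least 1.66-fold lower on CM (adjusted p = 0.0150), and Tgfb1 fell by 0.41 (adjusted p = 0.0360). In ST Tnfrsf1b, a receptor of tumor necrosis factor, rose by 0.37 (adjusted p = 0.0344). In FC the same gene was among the 3 that were lower, at -0.35 (adjusted p = 0.0110), which turned to 0.08 with the slide block. None was called in HT, where Lif had 0.33 (adjusted p = 0.600). Of 12 listed chemokine genes 8 were measured, and only Cxcl1 was called, in FC (adjusted p = 0.0269), with group means of 4.92 on SC and 4.33 on CM. It was detected on none of the SC FC arrays and on 1 of 3 CM FC arrays, so that no fold is given. In ST Cxcl10 had the largest difference, 1.35 (adjusted p = 0.276), detected on 1 SC and 3 CM arrays, with an SD of 1.15 among the CM arrays. In HT Cxcl1 was detected on 1 array of each diet and was not called (adjusted p = 0.409).

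Over the 23 arrays the rows with the most similar profiles to Il1b were Nuak1 (Pearson r = 0.95) and Raet1e (0.94). Those of Ptpn1 were Rxrb (0.90) and Lyl1 (0.90), and those of Socs3 were Telo2 (0.84) and Sphk1 (0.82). Stat3 NM_011486 was most similar to Phf23 (0.86) and Gm1943 (0.84), and Stat3 NM_213659 to Vps16 (0.87) and Nek4 (0.82), so that its rows shared none of the 4. Tlr4 went with 4930503L19Rik (0.86) and Ccnl2 (0.86), and Ccl2 with Ifi27l2a (0.85) and Afm (0.81). For Nfkbia they were Gata2 and Mfsd2a (both 0.77), and for Ikbkb Zdhhc6 (0.77) and Tnk1 (0.68). Il6 and Tnf, both at background on nearly all arrays, were most similar to Fignl1 (0.78) and Pcdhb10 (0.77), and to Olfr622 (0.74) and Lep (0.73). These arrays share regions, mice and slides, and the values are a description with no test.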

How the data were processed

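Single-color Agilent arrays of FC, ST and HT from SC and CM mice were analyzed. The authors deposited spot intensity values of each array (Feature Extraction 10.7.3.1) and a table of log2 values made by them by normexp correction and quantile normalization, after which dim probes were dropped and spots of a transcript averaged. Probe sequences are not reported here. The log2 levels were rebuilt from the median intensities (normexp, offset 0) and matched the deposited table to within 5e-09. Spots were kept at 1.1 times the log2 95th percentile of 308 negative controls on at least 4 arrays (log2 4.43 to 4.97). A bound on a fold sets the dimmer group no lower than the dimmest spot well above background on each array. It holds for this background correction only.

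The 31395 rows of the 23 arrays were fitted with limma 3.58.1 and statmod 1.5.0 in R 4.3.3, using 6 group means, weighted arrays and a random effect of the mouse (correlation -0.0398), with Benjamini-Hochberg adjustment over all rows. The array weights ran from 0.222 to 2.74. A difference is the estimate of this weighted fit and need not equal that of the group means, which are unweighted. Gene-by-gene array weights were used, a choice made in earlier work after values had been seen. REML weights were an alternative. The slide was read from the array barcodes. The model was tested on simulated data. These held no effect of the slide, so the test does not bear on how far diet and slide can be told apart. P-values rest on the spread between arrays of a group, and the number of arrays limits precision. Each CM group lay on a single slide and each SC group on several. Within SC groups the spread thus holds mouse and slide together.

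The genes and lists were chosen with earlier results of these data known. Every row of the 10 genes is named. For each list and region up to 2 rises and 2 falls called are named, or the largest difference. Tnfrsf1b is given in FC in addition. Lists use the brightest row of a gene, and each row is given its 2 most correlated named genes. The lists are of leptin signaling, NF-kappaB core, Toll-like receptor signaling, cytokines and receptors, chemokines, and markers of microglia, blood leukocytes, red blood cells, endothelium, astrocytes, choroid plexus, cortex, striatum, hypothalamus and thalamus. Alternatives covered the slide, mouse, array weights, arrays fitted, signal, offset, normalization, filter, averaging, thresholds and each array left out. A CM FC array of replicate 52 was not analysed here.

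The replicate numbers were checked for pairing. SC and CM mice with the same number are different animals, and the correlation of their deviations from the group means was -0.321 to 0.136. Arrays of the same mouse in different regions, paired by the mouse, had -0.486 to 0.131.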

Additional observations from a re-analysis of the deposited data

Results flagged for a closer look

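In 2 of 55 groups of 4 arrays a single array stood far from the others, where chance gives about 1 in 20 (Dixon's test). The Il1b level of the SC HT array of mouse L54 was 3.78, against 4.10 to 4.14 in the other SC HT arrays (gap 0.911 of the range), all of them at background. The Nfkbia level of the SC ST array of mouse L58 was 11.85, against 12.02 to 12.04 (gap 0.888 of the range).

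The diet difference of 3 rows differed between ST and FC by the test of that difference (limma). It was 0.68 for Stat3 NM_011486 (adjusted p = 0.00389), 0.38 for Stat3 NM_213659 (adjusted p = 0.0252) and 0.53 for Ptpn1 (adjusted p = 0.0104). For Stat3 NM_011486 it differed by 0.47 between HT and FC (adjusted p = 0.0248). With 75th percentile scaling the Stat3 NM_011486 values were 0.15 (adjusted p = 0.444) and 0.05 (adjusted p = 0.815). The second Ptpn1 probe gave 0.29 (adjusted p = 0.158). None was called in the slide-blocked fit.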

How the results depend on the processing

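Counts are of the 11 rows called. For diet in FC the 2 calls became 0 with a fixed and 1 with a random slide block, 0 without array weights, 0 at the study's thresholds and 1 to 2 with an array left out. For diet in ST the 2 calls became 0 with a fixed or random slide block, 0 without array weights, 0 with only the regions compared, 0 at the study's thresholds, 1 with the animal number as a replicate block, 1 with 75th percentile scaling, 1 without the filter and 1 to 2 with an array left out. In HT no alternative gave a call. On SC the 2 calls between ST and FC ranged from 1 to 3 with an array left out. The 4 between HT and FC became 1 with the fixed and 2 with the random slide block, 2 with quantile normalization within regions and 2 to 4 with an array left out. The 2 between HT and ST became 1 with the fixed slide block, 1 with the replicate block, 1 with the first probe of each transcript, 4 with quantile normalization within regions and 0 to 3 with an array left out. The 4 were Il1b, lower in HT, and Socs3 (0.64), Stat3 NM_011486 (0.35) and Stat3 NM_213659 (0.40), higher in HT. Stat3 NM_213659 had 0.27 before (adjusted p = 0.0561, limma). It also gained a call without the mouse block, without array weights, and with REML weights, the offset of 50 or the filter on spots well above background. Of the differences of diet effects, the 3 calls between ST and FC became 0 with either slide block, 1 without array weights and 2 to 4 with an array left out. The 1 call between HT and FC became 0 with either slide block and without array weights, 2 without the replicate block for the mouse, 2 with the mean spot signal, the offset of 50, quantile normalization within regions, 75th percentile scaling (Tnf and Ccl2) or only the regions compared, and 0 to 3 with an array left out. Between HT and ST the count was 0 to 1. A count that did not move can still hold other genes. With 75th percentile scaling Il1b lost its diet call in FC and Tnf gained one there. Under the same scaling Stat3 NM_011486 lost both of its calls between diet effects, and Tnf gained one between ST and FC. With quantile normalization within regions Ptpn1 lost its call between HT and ST on SC. Among called rows, directions turned for Tlr4 between HT and FC on SC with the fixed slide block (0.21) and within slide 2 (0.17), for Socs3 there within slide 2 (0.28), and for Stat3 NM_213659 between the diet effects of ST and FC with the fixed slide block (-0.12). Stat3 NM_011486, not called between HT and FC on SC, had 0.29 there with 75th percentile scaling (adjusted p = 0.0284, limma). Ccl2 (0.80, adjusted p = 0.00673) and Tnf (0.77, adjusted p = 0.0288) gained calls there under that scaling. Ccl2 also gained one without SC FC replicate 58 (0.45, adjusted p = 0.0222). The fixed slide block also turned the diet difference of rows without a call, 6 of them in FC, 3 in ST, 5 in HT. The cause was not tested. With the replicate block the calls of Stat3 NM_213659 for diet in ST, and of Tlr4 and Ptpn1 in HT on SC, were lost, and it ended no other call. Il6, Tnf and, outside FC, Il1b are limited by signal at background.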

Other observations

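Of the other marker lists, diet calls were made in FC only (limma, no slide term). There 1 of 8 blood leukocyte and 1 of 5 endothelial markers were higher on CM, and 2 of 5 astrocyte and 1 of 6 striatal markers were lower. Red blood cell, choroid plexus, cortical, hypothalamic and thalamic markers had none. Beside these counts stand 28.6% of all rows called in FC, and with the slide block no marker was called there. Hypothalamic markers varied most within a group, with a summed log2 level of 10.10 to 16.55 among the SC ST arrays, followed by choroid plexus markers, at 12.29 to 18.33 among the CM ST arrays. Between ST and FC on SC, 3 of 5 cortical markers and 1 of 5 astrocyte markers were lower in ST, beside 14.9% of all rows called. With the slide block 3 cortical and 0 astrocyte markers were called. Between HT and FC, 2 leukocyte and 2 astrocyte markers were higher in HT, 3 striatal markers were lower, and the endothelium had 1 marker higher and 1 lower. Of all rows 43.2% were called there. With the slide block 2 astrocyte markers and no leukocyte, striatal or endothelial marker were called. Between HT and ST, 1 leukocyte, 3 cortical and all 6 striatal markers were lower in HT, while 1 cortical, 2 astrocyte, 3 hypothalamic and all 5 thalamic markers were higher. Of all rows 21.5% were called there. With the slide block 0 leukocyte, 2 cortical, 6 striatal, 3 astrocyte, 2 hypothalamic and 5 thalamic markers were called. No red blood cell or choroid plexus marker was called between regions on SC without a slide term. With the slide block 1 choroid plexus and 1 thalamic marker were called between ST and FC.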
